A study of Mus musculus with 6 samples.

Results

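Translation factors are the proteins that bring the small ribosomal subunit to an mRNA, find the start codon, join the large subunit and then move the ribosome along the message. This account covers the mRNAs of the initiation factors eIF1 to eIF6 and of the elongation factors eEF1 and eEF2, together with their direct inhibitors and modifying enzymes, in a mouse model of chronic myeloid leukemia in blast crisis (bcCML). Members were the protein-coding genes whose symbol begins with Eif1 to Eif6, Eef1 or Eef2 and whose mean over all libraries was at least 1. The rule leaves out the eIF2 gamma genes Eif2s3x and Eif2s3y and the Eif2ak kinases. Of the 68 protein-coding genes with these symbols, 59 were members, 3 fell below the minimum (Eef1a2, Eef1akmt3 and Eif4e1b) and 6 were left out by the rule. The whole table holds 36083 genes, of which 12155 reached the same minimum.

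RNA was measured in 6 libraries, 3 labelled WT and 3 labelled Sdc1-/- (Sdc1 KO), with no other treatment. KLS cells, the c-Kit+ Lin- Sca1+ stem and progenitor cells of the bone marrow, were sorted from WT or Sdc1-/- donors of the B6 background and infected with retroviruses that carry BCR-ABL and NUP98-HOXA9, so both groups carry these oncogenes. Cells positive for both were transplanted, into NSG mice per the labels and, in the general methods of the study, into irradiated CD45.1 mice for primary transplants. All recipients were killed at the same time, and Lin- bcCML cells were sorted from the spleen. The sources differ on the age of the mice, which is 8 to 16 weeks in the methods and 4 to 8 weeks, with both sexes used, in the reporting summary. The sources do not say if each library is a mouse of its own, and the study calls the WT libraries technical replicates in a figure legend, so the p-values below measure only the spread between libraries. The deposited value is a TPM, which divides by transcript length and so lets levels be compared between genes, rescaled between libraries to sums of 1048875 to 1058263 in the libraries labelled WT and 944973 to 951814 in those labelled Sdc1-/-. Read depth is unknown, so no counting error can be given.

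Sdc1 itself, the gene that encodes the proteoglycan syndecan-1, was higher under the Sdc1-/- label. Its values were 1.75, 1.21 and 1.51 under the WT label and 3.85, 3.80 and 4.12 under the Sdc1-/- label, a log2 fold change of 0.99, standard error 0.093, limma adjusted p = 1.2e-04, on log2(value + 1), a scale that understates the change of low genes and on which all fold changes below are given. Per the study, the knockout allele interrupts the part of the gene that codes for the signal peptide, so that mature protein does not reach the surface, and the deletion was checked by PCR and staining. Such an allele can still give mRNA, and this level alone does not check the labels. The groups are named by their labels throughout. Mature neutrophil markers summed to 13158 to 14096 in the libraries labelled WT and 4727 to 4865 in those labelled Sdc1-/-, with 10 of 10 called lower, and erythroid markers to 9526 to 10231 against 5296 to 5698, with 7 of 9 called lower and 2 higher. Monocyte and macrophage markers summed to 565 to 586 against 254 to 262, with 6 of 7 tested called lower and Cx3cr1 higher. Myeloid progenitor markers summed to 1253 to 1353 against 916 to 930, with 8 of 10 called lower. The other progenitor markers, Kit (log2 fold change 0.18) and Myb (0.37), were called higher. Megakaryocyte markers summed to 496 to 523 against 499 to 511, with 4 of 5 tested called lower and Pf4 called higher. B cell markers summed to 2.14 to 2.79 against 1.97 to 2.61, T and NK cell markers to 7.42 to 8.47 against 7.27 to 7.57, and endothelial and stromal markers to 19.7 to 20.4 against 23.9 to 24.1, and most of these last 3 lists had a mean below 1 (5 of 6, 8 of 9 and 7 of 8 genes). The 13 protein genes of the mitochondrial genome summed to 12778 to 21193 against 17900 to 23142, with 8 of 13 called higher. The Y-linked genes Ddx3y, Eif2s3y, Kdm5d and Uty summed to 0.276 to 0.308 in the libraries labelled WT and 68.1 to 78.4 in those labelled Sdc1-/-, so the sex of the donor cells and the genotype label cannot be told apart. The part of these differences in the results below was not tested, and in bulk RNA fewer cells of a type and less RNA per cell cannot be told apart.

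Initiation on most cellular mRNAs begins when eIF4F binds the cap. Its subunits are eIF4E, the cap binder, eIF4G, the scaffold, and eIF4A, an RNA helicase, while the 4E-BP proteins hold eIF4E away from eIF4G until mTORC1 phosphorylates them. The small ribosomal subunit arrives with eIF1, eIF1A, eIF3 and eIF2 bound to initiator tRNA, and eIF2B, a complex of 5 different subunits, recharges eIF2 with GTP. Phosphorylated eIF2 blocks eIF2B, which is how the integrated stress response slows translation. eEF1A then carries aminoacyl-tRNA to the ribosome and eEF2 moves the ribosome by a codon. Many elongation factor mRNAs, like those of the ribosomal proteins, begin with an oligopyrimidine tract (TOP mRNAs), which places their translation under mTORC1.

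The core promoters of these genes were read first for what they share. RefSeq promoter windows on GRCm38.p6, 250 bases before to 50 after an annotated start, matched 45 of the 59 members. The E-box CACGTG, the letters to which Myc and Max and related factors bind and which read the same on both strands, occurred in at least 1 window of 13 of these 45 genes (28.9%), against 12.2% of the 8713 tested genes with a window and 8.09% of all 27025 genes in the table. It was present in 5 of 12 matched members that were called higher, 4 of 14 called lower and 4 of 19 not called. The E-box itself holds a CG. The median count of CG per window was 24 for members, 20 for tested genes and 7 over all promoters. The part of this difference in the shares above was not tested. A match is a description of the letters only. The following stretches of at most 30 bases, in capitals the E-box, are shown for members of both directions whose values come next.
Eif4g1, chr16:20672661-20672690, plus strand: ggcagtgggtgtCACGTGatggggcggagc
Eif4g1, chr16:20672730-20672759, plus strand: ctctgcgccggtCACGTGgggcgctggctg
Eif4a1, chr11:69672595-69672624, minus strand: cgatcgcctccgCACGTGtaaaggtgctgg
Eif3a, chr19:60790654-60790683, minus strand: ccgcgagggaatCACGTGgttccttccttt
Eif3f, chr7:108934335-108934364, plus strand: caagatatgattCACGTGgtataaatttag
Eef2, chr10:81176576-81176605, plus strand: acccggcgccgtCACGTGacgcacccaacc
In this set the sites of Eif4g1 lie 54 bases before and 15 after the annotated start, that of Eif3a 22 after, that of Eif4a1 189 before, that of Eef2 43 before and that of Eif3f 68 before. A start on C followed by at least 4 more pyrimidines, the mark of a TOP mRNA, was at the annotated start of 1 of the 45 genes, Eif3f, against 3.01% of all genes in the table. Of the 5 matched members listed below as TOP mRNAs, the other 4 (Eef1a1, Eef1b2, Eef2 and Eif4b) did not hold these letters at the annotated start. Its tract is in capitals here.
Eif3f, chr7:108934403-108934432, plus strand: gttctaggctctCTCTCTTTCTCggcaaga

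Across the 59 members, 35 differed between the groups at an adjusted p under 0.05 (limma, Benjamini-Hochberg over all 12155 tested genes), with 14 higher and 21 lower under the Sdc1-/- label. These are 59.3% of the members, against 60.7% of all tested genes, of which 29.3% were called higher and 31.3% lower. The groups did not overlap in 38 members, 15 higher and 23 lower, where the share over all tested genes was 66.7%. Most changes were small: 31 of the 35 calls had a log2 fold change between -0.5 and 0.5, and 2 reached 2-fold. The median log2 fold change of the members was -0.06, against -0.01 over all tested genes. Mean values ran from 2.20 for Eif5a2 to 14994 for Eef1a1, with 32 members at 100 or more and 7 at 1000 or more. Replicates were close, with a median coefficient of variation within a group of 3.69%.

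The split between higher and lower depended on how the libraries were scaled. When each library was scaled to a sum of 1000000, the median of all tested genes moved from -0.01 to 0.12 on the log2 scale, and 26 members were called higher and 9 lower, against 43.5% and 19.5% of all genes. Quantile normalization, which gives every library the same distribution of values, called 21 members higher and 11 lower, against 31.1% and 28.4%. By construction it can remove a change shared by the genes of highest value, among them Eef1a1, Eef1b2, Eif5a and Eef2. Lower genes were 60% of the members' calls as deposited, 25.7% at a common sum and 34.4% after quantile normalization. With a trend in GC content and transcript length removed, an alternative chosen after seeing the data, 17 members were called higher and 15 lower, against 32.5% and 30.6% of all 11983 genes tested in that fit. Of the 14 higher calls, 11 were kept under all 5 scalings tried, those of Eif1, Eif2b4, Eif2b5, Eif3a, Eif4a2, Eif4ebp3, Eif4g1, Eif4g3, Eif5b, Eef1d and Eef1akmt2. Of the 21 lower calls, 6 were kept, those of Eif2b2, Eif2b3, Eif3e, Eif3f, Eif3h and Eif3i. Of the 24 members not called as deposited, 9 were not called under any of the 5 scalings. Those 9 were Eif2s2, Eif3d, Eif3j2, Eif4ebp1, Eif4enif1, Eif4g2, Eif5a2, Eef1akmt4 and Eef2kmt, and the others gained a call under at least 1 scaling. With each library left out in turn, 28 of the 35 calls were kept in every case, and those of Eif1ad, Eif3k, Eif3l, Eif3m, Eif4a1, Eif4h and Eif6 were lost at least once.

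**Figure D1:**
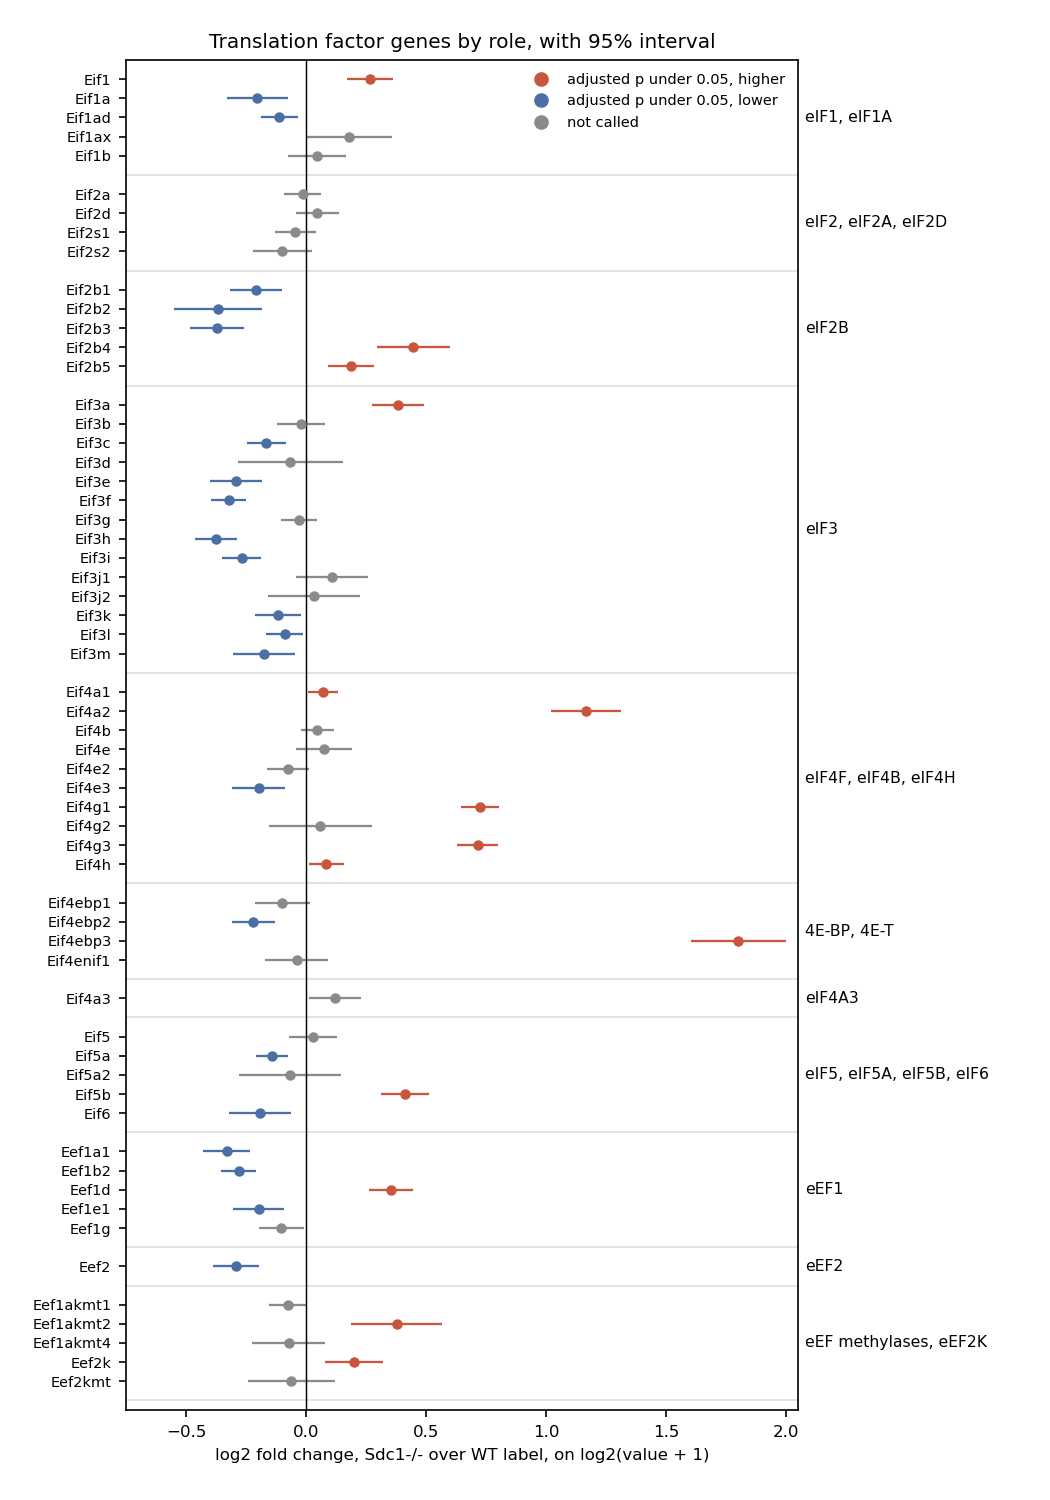
Log2 fold change (Sdc1-/- label over WT label, on log2(value + 1)) of all 59 translation factor genes in order of role, with 95% intervals from limma, 3 libraries in each group. Of the 35 called genes, Eif4ebp3 (1.80) and Eif4a2 (1.17) reached 2-fold, and the eIF4G genes Eif4g1 and Eif4g3 followed.

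**Figure D2:**
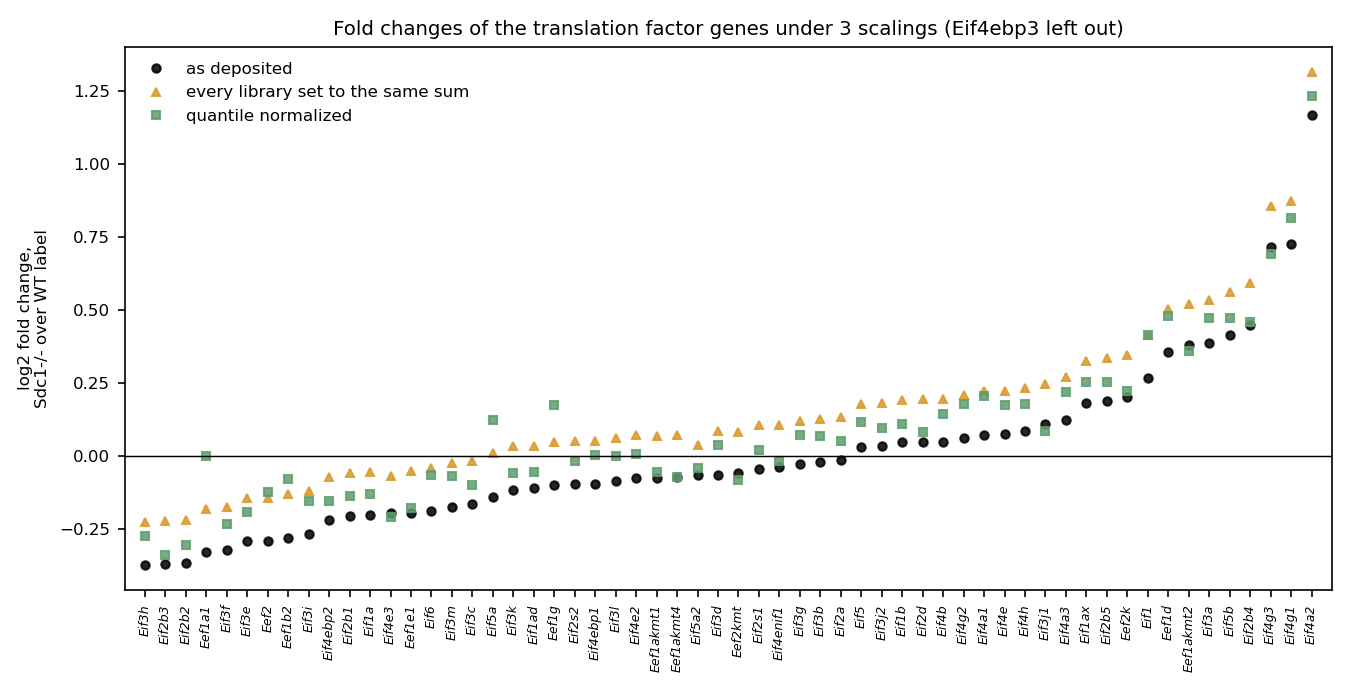
Log2 fold change of 58 members (Eif4ebp3 is off the scale) as deposited, with every library set to the same sum, and after quantile normalization. The common sum moves all genes upward, so that genes near 0 change sign while Eif4a2, Eif4g1 and Eif4g3 stay well above 0 and Eif3h, Eif2b3 and Eif2b2 below.

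In the cap-binding complex as deposited, the scaffold genes Eif4g1 and Eif4g3 and both helicase genes were called higher, and the cap binder Eif4e was not called. Of the 10 genes of eIF4F and its helicase cofactors, 5 were called higher, 1 lower and 4 were not called. Calls made up 60% of this group, near the 60.7% of all tested genes. Eif4g1 (chr16:20668313-20692884), which encodes the main eIF4G scaffold, had values of 139, 131 and 133 under the WT label and 226, 225 and 218 under the Sdc1-/- label. Every library labelled Sdc1-/- lay above every library labelled WT, and the log2 fold change was 0.72, standard error 0.033, limma adjusted p = 5.6e-06. Eif4g3, a paralogous scaffold, had values of 13.0, 12.7 and 12.9 under the WT label and 22.2, 21.5 and 21.3 under the Sdc1-/- label, again without overlap, at 0.71, standard error 0.037, limma adjusted p = 8.1e-06. The ratio of Eif4g3 to Eif4g1 within a library, which a factor common to a library cannot move, was 0.0931, 0.0963 and 0.0967 under the WT label and 0.0982, 0.0957 and 0.0980 under the Sdc1-/- label. Its difference of 0.03 on the log2 scale did not exceed the spread between libraries (exact permutation test, two-sided, p = 0.3), so the share of Eif4g3 in the pair was 8.51 to 8.82% under the WT label and 8.74 to 8.94% under the Sdc1-/- label. Another scaffold-like gene, Eif4g2, which cannot bind eIF4E and works in cap-independent initiation, stood at 359, 389.5 and 406 under the WT label and 362, 386 and 459 under the Sdc1-/- label. Its groups overlapped, with a log2 fold change of 0.06, standard error 0.09, limma adjusted p = 0.592.

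The helicase genes moved to different extents. Eif4a2 (chr16:23107444-23114136) had values of 68.8, 80.7 and 72.3 under the WT label and 161, 166 and 174 under the Sdc1-/- label. The lowest library labelled Sdc1-/- was at 161 and the highest labelled WT at 80.7, and the log2 fold change was 1.17, standard error 0.061, limma adjusted p = 8.9e-06. Eif4a1, the abundant paralog, had values of 1258, 1271 and 1285 under the WT label and 1341, 1339.9 and 1326 under the Sdc1-/- label, a narrow gap with a log2 fold change of 0.07, standard error 0.026, limma adjusted p = 0.0495. This call was lost whenever any of the 6 libraries was left out (limma adjusted p up to 0.146). It was also lost with every library set to the same median over protein-coding genes (0.04). Of the 31-base words of Eif4a1, 31.1% also occur in other genes, mainly the pseudogene Eif4a-ps4, which had values of 379.6, 388 and 323 under the WT label and 372, 354 and 343 under the Sdc1-/- label, so reads could be split between them. The ratio of Eif4a2 to Eif4a1 was 0.0547, 0.0635 and 0.0563 under the WT label and 0.120, 0.124 and 0.131 under the Sdc1-/- label. On the log2 scale it was higher by 1.11 under the Sdc1-/- label (two-sided exact permutation test, p = 0.1, which is the minimum for 3 against 3, and 0.2 after Benjamini-Hochberg adjustment over 6 ratios). Put as a share of both helicase mRNAs, Eif4a2 made up 5.19 to 5.97% in the libraries labelled WT and 10.7 to 11.6% in those labelled Sdc1-/-.

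Eif4e, the cap binder, stood at 224, 248 and 232 under the WT label and 237, 248 and 258 under the Sdc1-/- label, with overlapping groups and a log2 fold change of 0.07, standard error 0.049, limma adjusted p = 0.226. Eif4e was called higher at a common sum (0.22) and after quantile normalization (0.17). Its low paralog Eif4e3 was called lower, at 6.58, 6.69 and 6.93 under the WT label and 5.70, 5.82 and 5.71 under the Sdc1-/- label (-0.20, standard error 0.046, limma adjusted p = 0.00831), but not at a common sum (-0.07). Eif4e2, a cap binder that can repress, was not called at 94.5 to 101 under the WT label and 90.9 to 95.3 under the Sdc1-/- label. Eif4h, a helicase cofactor, had values of 212, 204 and 211 under the WT label and 226, 223 and 216 under the Sdc1-/- label and a log2 fold change of 0.08, standard error 0.031, limma adjusted p = 0.0495, a call that was lost when any library other than Sdc1-/- library 3 was left out (limma adjusted p up to 0.138). The related cofactor Eif4b was not called at 228 to 236 under the WT label and 236 to 243 under the Sdc1-/- label. Eif4a3, the helicase of the exon junction complex rather than of initiation, did not overlap at 211 to 221 under the WT label and 225 to 251 under the Sdc1-/- label but missed the threshold.

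Among the inhibitors of eIF4E, 1 gene rose, 1 fell and 2 were not called, so 50% were called, against 60.7% of all tested genes. Eif4ebp1 stood at 109.8, 101 and 104 under the WT label and 103, 97.1 and 93.8 under the Sdc1-/- label, overlapping, with a log2 fold change of -0.10, standard error 0.048, limma adjusted p = 0.119. Eif4ebp2 was called lower, at 83.4, 79.7 and 84.5 under the WT label and 71.6, 72.4 and 68.2 under the Sdc1-/- label (-0.22, standard error 0.038, limma adjusted p = 0.00214), but was not called at a common sum (-0.07). The ratio of Eif4ebp1 to Eif4e was 0.489, 0.407 and 0.450 under the WT label and 0.437, 0.392 and 0.364 under the Sdc1-/- label, and its difference of -0.17 on the log2 scale did not exceed the spread (exact permutation test, two-sided, p = 0.2). Eif4ebp3, named here after its values were seen, had the largest fold change of the members at a low level, 0.930, 0.745 and 0.650 under the WT label and 5.54, 4.93 and 5.07 under the Sdc1-/- label (1.80, standard error 0.083, limma adjusted p = 5.6e-06). It shares 66.4% of its 31-base words with the overlapping readthrough gene AC115631.1 on the same strand, whose values were 4.89, 4.52 and 4.97 under the WT label and 9.35, 9.70 and 9.44 under the Sdc1-/- label, so its level is uncertain. Even so it made up at most 3.06% of the summed 4E-BP mRNA in any library. Eif4enif1, the eIF4E transporter, was not called at 33.6 to 37.9 under the WT label and 33.6 to 36.6 under the Sdc1-/- label.

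**Figure D3:**
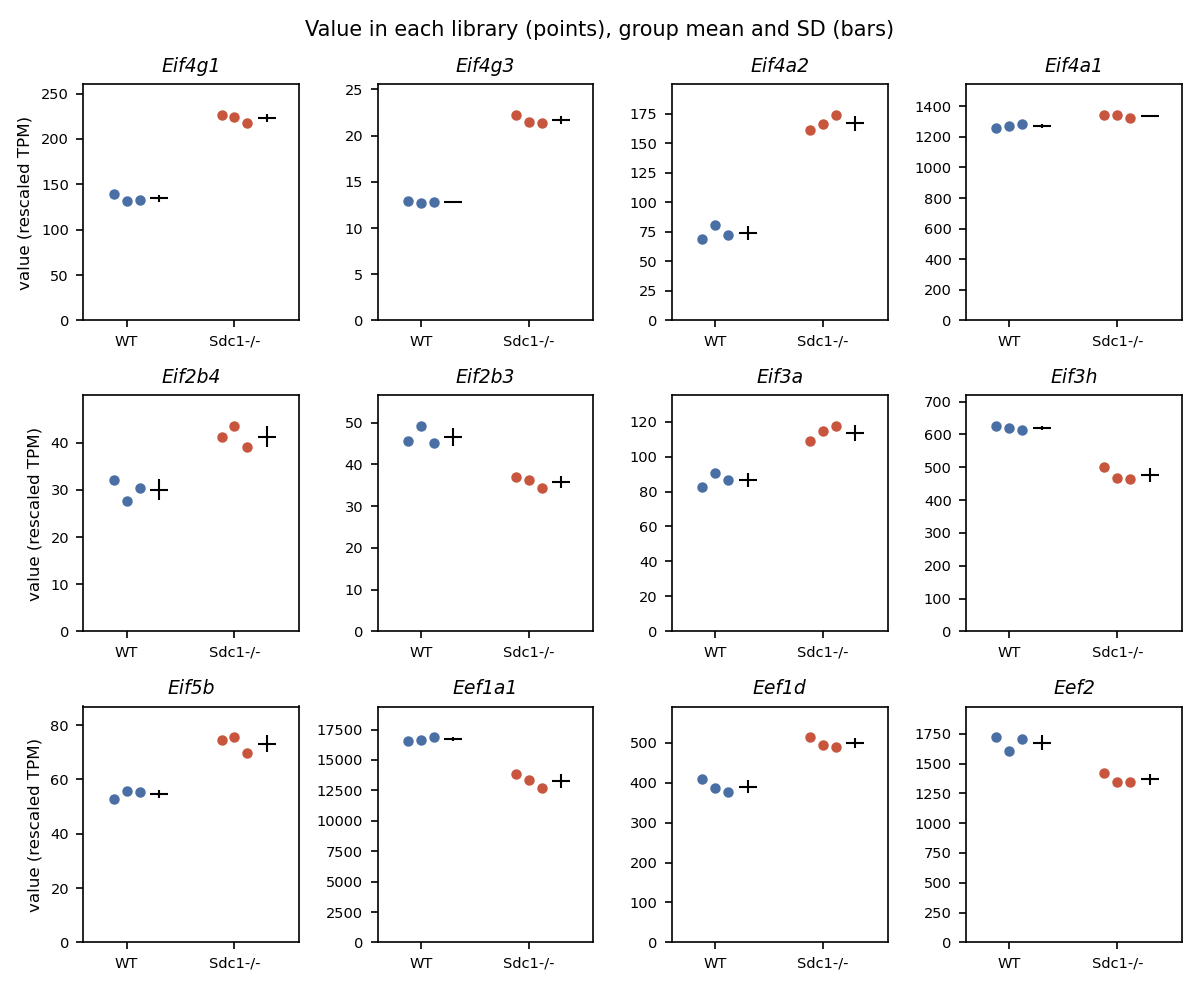
Deposited value (rescaled TPM, axes from 0) of 12 members in each of the 6 libraries, with the group mean and SD (n = 3). Eif4g1, Eif4g3 and Eif4a2 are separated by a wide gap, Eif4a1 by a narrow one, and Eif2b3, Eif3h, Eef1a1 and Eef2 are lower in all 3 libraries labelled Sdc1-/-.

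The 5 subunit genes of eIF2B did not move together. All 5 were called, Eif2b4 and Eif2b5 higher and Eif2b1, Eif2b2 and Eif2b3 lower, where 60.7% of all tested genes were called. Eif2b4 (chr5:31187558-31193430), the delta subunit, had values of 32.0, 27.6 and 30.4 under the WT label and 41.1, 43.5 and 39.0 under the Sdc1-/- label, a log2 fold change of 0.45, standard error 0.064, limma adjusted p = 8.5e-04. Eif2b5, which encodes the catalytic epsilon subunit, had 68.6, 71.4 and 66.6 under the WT label and 77.4, 81.6 and 76.5 under the Sdc1-/- label (0.19, standard error 0.04, limma adjusted p = 0.00587). The groups were apart in both genes. Eif2b3, the gamma subunit that pairs with epsilon, had values of 45.6, 49.1 and 45.0 under the WT label and 37.0, 36.2 and 34.3 under the Sdc1-/- label, with a log2 fold change of -0.37, standard error 0.047, limma adjusted p = 5.0e-04. Eif2b2, the beta subunit, had 75.0, 71.5 and 72.6 under the WT label and 62.6, 57.5 and 49.8 under the Sdc1-/- label, with the widest spread among the libraries labelled Sdc1-/- (-0.37, standard error 0.078, limma adjusted p = 0.00545). Eif2b1, the alpha subunit, was lower at 78.1, 71.1 and 70.9 under the WT label and 62.8, 64.9 and 62.4 under the Sdc1-/- label (-0.21, standard error 0.046, limma adjusted p = 0.00639), a call that was not kept under every scaling.

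Within the summed eIF2B mRNA, computed on the deposited values and not moved by a factor common to a library, the share of Eif2b4 was 9.49 to 10.7% under the WT label and 14.6 to 15.3% under the Sdc1-/- label. Eif2b5 went from 22.9 to 24.6% to 27.5 to 29.2%, and Eif2b3 from 15.2 to 16.9% to 12.8 to 13.2%. None of the 5 shares overlapped between the groups, where the values of 66.7% of all tested genes did not overlap. Shares of a sum are tied together, so larger shares of some genes make others smaller, and the 5 are not separate results. The sum itself was 286 to 299 against 262 to 284.

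eIF2 is the substrate of eIF2B, and Eif2s1, Eif2s2, Eif2a and Eif2d were not called as deposited. At a common sum, where 43.5% of all tested genes were called higher, so were Eif2s1 (0.10), Eif2a (0.13) and Eif2d (0.19). Eif2s2 was not called there (0.05). Eif2a was also called higher with the trend in GC content and length removed (0.08). Eif2s1, which encodes the alpha subunit that the stress kinases phosphorylate, stood at 168, 173 and 168 under the WT label and 159, 163 and 172 under the Sdc1-/- label. Its groups overlapped and its log2 fold change was -0.04, standard error 0.036, limma adjusted p = 0.326. Eif2s2, the beta subunit, overlapped as well, at 134 to 146 under the WT label and 122 to 137 under the Sdc1-/- label. So did Eif2a, at 73.7 to 77.1 under the WT label and 72.5 to 75.4 under the Sdc1-/- label, and Eif2d, at 45.7 to 48.2 under the WT label and 47.6 to 50.3 under the Sdc1-/- label, which can deliver initiator tRNA without eIF2. The gamma subunit genes, left out of the membership by the rule, differed with the Y-linked markers. Eif2s3x on chromosome X had values of 171, 177 and 179 under the WT label and 119, 123 and 122 under the Sdc1-/- label (-0.53, standard error 0.031, limma adjusted p = 1.4e-05). Eif2s3y on chromosome Y had 0, 0 and 0.012 under the WT label and 43.2, 49.0 and 49.8 under the Sdc1-/- label. Of the eIF2 kinases, Eif2ak4 (GCN2, which senses uncharged tRNA) had 5.36, 5.72 and 5.19 under the WT label and 8.47, 8.79 and 8.42 under the Sdc1-/- label (0.58, standard error 0.052, limma adjusted p = 9.7e-05) and Eif2ak2 (PKR, which senses double-stranded RNA) had 7.84, 8.54 and 7.80 under the WT label and 10.2, 11 and 10.4 under the Sdc1-/- label (0.35, standard error 0.053, limma adjusted p = 0.00119). Eif2ak1, the heme-regulated kinase, at 22.7, 22.3 and 22.4 under the WT label and 21.1, 22.1 and 20.7 under the Sdc1-/- label, and Eif2ak3 (PERK), at 6.58, 5.75 and 8.57 under the WT label and 8.53, 7.88 and 6.48 under the Sdc1-/- label, were not called.

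eIF3 is the large scaffold that holds the small subunit and the mRNA. Of its 14 genes, 8 were called lower, 1 higher and 5 were not called, with a median log2 fold change of -0.10 against -0.01 over all tested genes. Calls made up 64.3% of these genes, near the 60.7% of all tested genes. Eif3a (chr19:60761117-60790658), the largest subunit, was the exception. Its values were 82.8, 90.6 and 86.8 under the WT label and 109, 115 and 117 under the Sdc1-/- label, without overlap between the groups and with a log2 fold change of 0.38, standard error 0.046, limma adjusted p = 3.5e-04. Eif3h (chr15:51786558-51865523) had the largest fall of the eIF3 genes, at 625, 619 and 614 under the WT label and 502, 467 and 464 under the Sdc1-/- label (-0.37, standard error 0.037, limma adjusted p = 1.5e-04). Eif3f, which like Eif3h encodes an MPN-domain subunit, had values of 262, 254 and 263 under the WT label and 207, 212 and 203 under the Sdc1-/- label (-0.32, standard error 0.03, limma adjusted p = 1.2e-04). The groups were apart in both. Eif3e had 444, 477 and 452 under the WT label and 353, 379.9 and 387 under the Sdc1-/- label (-0.29, standard error 0.046, limma adjusted p = 0.00132) and Eif3i had 639, 620.0 and 632 under the WT label and 544, 518 and 507 under the Sdc1-/- label (-0.27, standard error 0.035, limma adjusted p = 5.2e-04). Those 4 falls were kept under all 5 scalings.

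Smaller falls were called for Eif3c, at -0.16, Eif3m, at -0.17, Eif3k, at -0.12, and Eif3l, at -0.09, and none of these 4 was kept under all scalings. The call of Eif3k was lost without WT library 1 or 3 or Sdc1-/- library 2 or 3 (limma adjusted p up to 0.128), and that of Eif3l without any library other than Sdc1-/- library 1 (up to 0.143). That of Eif3m was lost without WT library 2 or 3 or Sdc1-/- library 1 or 2 (up to 0.0801). Eif3k, among the most abundant members, had values of 515, 479 and 509 under the WT label and 479, 451 and 456 under the Sdc1-/- label, which did not overlap. Eif3g stood at 271, 259 and 255 under the WT label and 258, 256 and 254 under the Sdc1-/- label and Eif3d at 297, 224 and 256 under the WT label and 249, 244 and 244 under the Sdc1-/- label, both with overlapping groups (-0.03, standard error 0.032, limma adjusted p = 0.437 for Eif3g, -0.07, standard error 0.093, limma adjusted p = 0.57 for Eif3d). The spread of Eif3d was wider among the libraries labelled WT. Eif3b, at 210.2 to 231 under the WT label and 217 to 223 under the Sdc1-/- label, Eif3j1, at 10.7 to 12.2 under the WT label and 11.8 to 13.2 under the Sdc1-/- label, and Eif3j2, at 54.9 to 62.2 under the WT label and 54.8 to 67.0 under the Sdc1-/- label, were not called. Of the words of Eif3j2, 94.9% also occur in other genes, chiefly Eif3j1, so these paralogs are uncertain.

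As shares of the summed eIF3 mRNA, Eif3a went from 2.01 to 2.24% under the WT label to 3.01 to 3.28% under the Sdc1-/- label, and Eif3h from 15.2 to 15.3% to 13.0 to 13.9%. Eif3f went from 6.28 to 6.50% to 5.69 to 5.93%. Eif3b and Eif3g, whose values overlapped, took larger shares without overlap, 5.19 to 5.70% against 6.08 to 6.22% and 6.29 to 6.57% against 7.11 to 7.16%. Only the ranges of Eif3c, Eif3d, Eif3e, Eif3j2 and Eif3m overlapped among the 14 shares. The summed eIF3 mRNA was 4048 to 4124 against 3574 to 3608. These shares are tied to that lower sum, so a gene whose value held steady took a larger share. The values of 66.7% of all tested genes did not overlap.

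**Figure D4:**
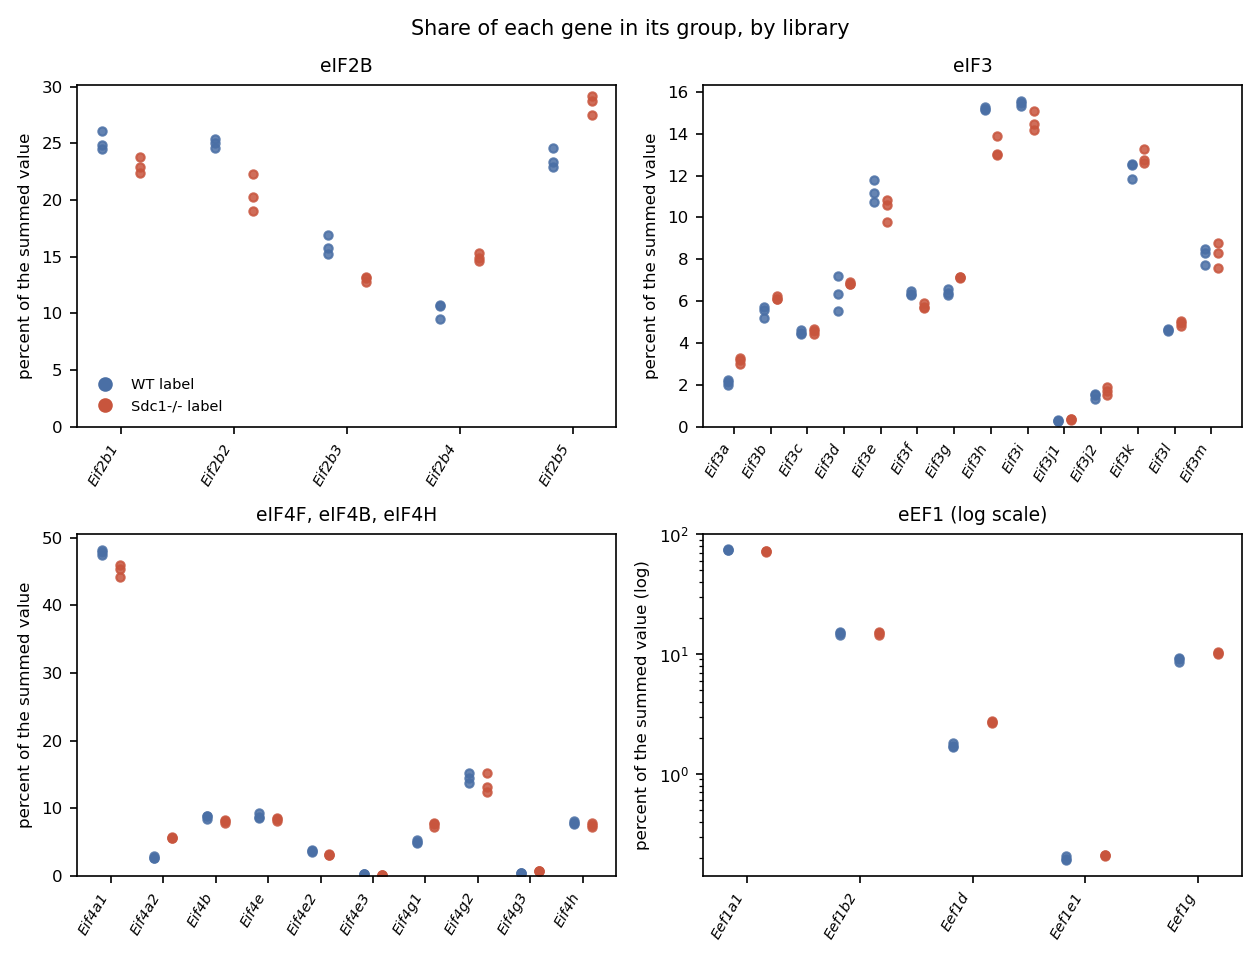
Share (percent) of each gene in the summed value of its group, for eIF2B, eIF3, the cap complex with its cofactors and eEF1 (log axis), with a point for each of the 3 libraries under the WT label (blue) and the Sdc1-/- label (red). Eif2b4, Eif3a, Eif4a2, Eif4g1 and Eef1d took larger shares under the Sdc1-/- label, and Eif2b3, Eif3h and Eef1a1 smaller ones.

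Start codon selection involves eIF1 and eIF1A, which keep the scanning ribosome open until a start codon pairs. Eif1 (chr11:100319885-100322096) had values of 1155, 1262 and 1188 under the WT label and 1406, 1466 and 1461 under the Sdc1-/- label, higher without overlap, with a log2 fold change of 0.27, standard error 0.041, limma adjusted p = 0.00117. About 23.0% of its words also occur in other genes, mainly Emd, which was called lower (-0.25, standard error 0.043, limma adjusted p = 0.00226). Its paralog Eif1b overlapped between the groups at 58.6 to 65.2 under the WT label and 61.7 to 66.8 under the Sdc1-/- label, and the ratio of Eif1b to Eif1 was 0.0528, 0.0517 and 0.0493 under the WT label and 0.0443, 0.0456 and 0.0422 under the Sdc1-/- label. This ratio was lower by 0.22 on the log2 scale (log2 difference of -0.22, two-sided exact permutation test, p = 0.1, the minimum here, and 0.2 adjusted over 6 ratios). Eif1a was called lower, at 79.4 to 83.8 under the WT label and 65.9 to 75.6 under the Sdc1-/- label (-0.20, standard error 0.054, limma adjusted p = 0.0142). That call was lost at a common sum (-0.06) and after quantile normalization (-0.13). Eif1ad, which encodes a related protein, was called lower at 55.7 to 57.6 under the WT label and 51.2 to 53.6 under the Sdc1-/- label (-0.11, standard error 0.032, limma adjusted p = 0.021), a call lost without WT library 1 or 2 or Sdc1-/- library 2 or 3 (up to 0.0823). Eif1ax, on chromosome X, overlapped at 63.6 to 75.4 under the WT label and 73.0 to 84.9 under the Sdc1-/- label and was not called.

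For the steps after start codon recognition, Eif5b, the GTPase that joins the ribosomal subunits, was called higher. It had values of 52.9, 55.8 and 55.5 under the WT label and 74.6, 75.5 and 69.6 under the Sdc1-/- label, a log2 fold change of 0.41, standard error 0.042, limma adjusted p = 1.8e-04. Eif5, the GTPase-activating protein of eIF2, stood at 135, 144 and 136 under the WT label and 136, 141 and 147 under the Sdc1-/- label and its groups overlapped (0.03, standard error 0.043, limma adjusted p = 0.577). Eif5a, which carries hypusine and helps the ribosome through difficult peptide bonds, was among the most abundant members at 2344, 2284 and 2304 under the WT label and 2109, 2095 and 2079.7 under the Sdc1-/- label. Its log2 fold change was -0.14, standard error 0.028, limma adjusted p = 0.0037 as deposited, 0.01 and not called at a common sum, and 0.12 and called higher after quantile normalization. The low paralog Eif5a2 overlapped at 2.18 to 2.33 under the WT label and 1.78 to 2.38 under the Sdc1-/- label, and its ratio to Eif5a differed by 0.04 on the log2 scale (exact permutation test, two-sided, p = 0.8). Eif6, which keeps the ribosomal subunits apart, had 354, 331 and 362 under the WT label and 322, 309.6 and 285 under the Sdc1-/- label (-0.19, standard error 0.055, limma adjusted p = 0.0197), a call lost without WT library 1 or 3 (limma adjusted p up to 0.0639).

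Elongation factor mRNAs made up most of the summed level. Eef1a1 (chr9:78478449-78489151), which encodes the aminoacyl-tRNA carrier eEF1A and had the highest mean of the members, had values of 16586, 16659.6 and 16863 under the WT label and 13806, 13367 and 12681 under the Sdc1-/- label. All 3 libraries labelled Sdc1-/- lay below all 3 labelled WT, with a log2 fold change of -0.33, standard error 0.041, limma adjusted p = 4.5e-04. At a common sum it was -0.18 and still called, while quantile normalization gave no difference by construction, since Eef1a1 ranked first among all 36083 genes in each of the 6 libraries. The genes of its exchange factor did not move alike. Eef1b2, the beta subunit, had 3351, 3423 and 3287 under the WT label and 2750.3, 2803 and 2729 under the Sdc1-/- label (-0.28, standard error 0.031, limma adjusted p = 2.4e-04), but was not called after quantile normalization (-0.08). Eef1d, the delta subunit, had 408, 386 and 376 under the WT label and 514, 493 and 490.2 under the Sdc1-/- label, with a log2 fold change of 0.35, standard error 0.039, limma adjusted p = 2.4e-04. Eef1g, the gamma subunit, stood at 2032, 1934 and 2095 under the WT label and 1919, 1897 and 1828 under the Sdc1-/- label and was not called as deposited (-0.10, standard error 0.04, limma adjusted p = 0.0589), but was called higher after quantile normalization. Between 47.6 and 49.8% of the words of Eef1g and Eef1a1 also occur in other genes, mostly pseudogenes. Such sharing is not confined to the members where it is given, and was 29.4% for Eif3h, 21.2% for Eef2 and 14.9% for Eif4a2.

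Within the summed eEF1 mRNA, Eef1d went from 1.66 to 1.82% under the WT label to 2.65 to 2.76% under the Sdc1-/- label, and Eef1g from 8.62 to 9.24% to 10.1 to 10.3%. Eef1a1 went from 74.0 to 74.4% to 71.4 to 72.6%, whereas Eef1b2 overlapped at 14.5 to 15.3% and 14.5 to 15.4%. Eef1e1, a scaffold protein of the tRNA synthetase complex despite its symbol, was called lower at 42.7 to 46.7 under the WT label and 37.2 to 39.6 under the Sdc1-/- label (-0.20, standard error 0.045, limma adjusted p = 0.00772). That call was lost at a common sum (-0.05) and with the trend in GC content and length removed (-0.12).

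Eef2 (chr10:81176631-81182498), the translocase, had values of 1721, 1602 and 1705 under the WT label and 1419.9, 1342 and 1343 under the Sdc1-/- label, lower without overlap, with a log2 fold change of -0.29, standard error 0.041, limma adjusted p = 7.6e-04. After quantile normalization it was -0.12 and not called. Eef2k, the kinase that inhibits eEF2, had 35.3, 32.5 and 35.9 under the WT label and 41.7, 38.1 and 39.7 under the Sdc1-/- label, with a log2 fold change of 0.20, standard error 0.052, limma adjusted p = 0.013. With the trend in GC content and length removed, Eef2k was at 0.09 and not called. Relative to each other within a library, the ratio of Eef2k to Eef2 was 0.0205, 0.0203 and 0.0211 under the WT label and 0.0294, 0.0284 and 0.0296 under the Sdc1-/- label, a log2 difference of 0.50 (two-sided exact permutation test, p = 0.1, the minimum here, and 0.2 adjusted over 6 ratios). Among the methyltransferases of the elongation factors, Eef1akmt2 had 17.2, 21.4 and 18.5 under the WT label and 23.9, 24.6 and 26.4 under the Sdc1-/- label (0.38, standard error 0.08, limma adjusted p = 0.0053), and Eef1akmt1, at 40.5 to 42.7 under the WT label and 39.2 to 40.1 under the Sdc1-/- label, Eef1akmt4, at 28.6 to 32.0 under the WT label and 26.3 to 30.4 under the Sdc1-/- label, and Eef2kmt, at 22.1 to 27.7 under the WT label and 22.8 to 23.8 under the Sdc1-/- label, were not called. Neither paralog Eef1a2, expressed mainly in muscle and neurons, nor the oocyte gene Eif4e1b reached a mean of 0.1.

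TOP mRNAs can be set beside the rest of the members. Of the 9 members listed as TOP mRNAs from general knowledge, 6 were called lower (Eef1a1, Eef1b2, Eef2, Eif3e, Eif3f and Eif3h), 1 higher (Eef1d) and 2 were not called (Eef1g and Eif4b), with a median log2 fold change of -0.29. The other 50 members had 13 higher and 15 lower calls and a median of -0.03. Calls made up 77.8% of the TOP members and 56% of the others, against 60.7% of all tested genes. Both sets moved with the scaling. At a common sum 6 TOP members were lower and 2 higher (median -0.14), against 3 lower and 24 higher of the others (median 0.11). After quantile normalization 3 TOP members were lower (Eif3e, Eif3f and Eif3h) and 3 higher (Eef1d, Eef1g and Eif4b), with a median of -0.08, against 8 lower and 18 higher of the others (median 0.06). As part of the whole library, the TOP members summed to 2.42 to 2.47% under the WT label and 2.15 to 2.28% under the Sdc1-/- label, and the others to 1.03% in each library labelled WT and 1.14 to 1.16% in those labelled Sdc1-/-. The 2 sums moved in opposite directions on this measure, and that of the TOP members rests mostly on Eef1a1. All 59 members together summed to 36444 to 36712 against 31282 to 32587 as deposited, or 3.45 to 3.50% against 3.31 to 3.42% of the library. Members called lower had shorter transcripts, with a median of 1942 bases, than members called higher, with 2717. Over all members the rank correlation of log2 fold change with transcript length was 0.28, and over 11983 tested genes 0.18. Both are descriptions across genes, which share the libraries and are not independent.

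Lists of neighbouring pathway genes set these counts beside the rest of the translation machinery. Over all tested genes, 29.3% were called higher and 31.3% lower as deposited, and 43.5% and 19.5% at a common sum. Of 85 tested genes with the symbol of a cytosolic ribosomal protein, a class whose mRNAs are TOP mRNAs, 72 were called lower and 2 higher, with a median of -0.24. This list was taken by symbol and also holds paralogs such as Rpl7l1, pseudogene symbols such as Rps12-ps3 and a gene of another kind, Rps19bp1. The 2 called higher were Rpl22l1, a paralog of Rpl22, at 0.25 and Rps19bp1, which encodes a protein that binds RPS19, at 0.17. Those counts depended on scaling, and were 38 lower and 3 higher at a common sum (median -0.09) and 13 lower and 8 higher after quantile normalization (median 0.01). Most of these genes are among the genes of highest value, where quantile normalization can remove a shared change by construction. Its counts therefore cannot decide if this list changed as a whole. Termination, recycling and poly(A)-binding factors had 8 higher and 3 lower of 17 tested (median 0.13). Pabpc1, which bridges the poly(A) tail to eIF4G, had 1044, 947 and 990.3 under the WT label and 1328, 1287 and 1181 under the Sdc1-/- label (0.35, standard error 0.055, limma adjusted p = 0.00138). Gspt1, the release factor eRF3, had 159, 156 and 158 under the WT label and 216, 236 and 237 under the Sdc1-/- label (0.54, standard error 0.042, limma adjusted p = 4.6e-05), and Etf1, its partner eRF1, was at 106, 118 and 114 under the WT label and 93.3, 102 and 106 under the Sdc1-/- label (-0.16, standard error 0.059, limma adjusted p = 0.0449). The median of this list was 0.27 at a common sum and 0.19 after quantile normalization.

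Signals that act on the cap and on eIF2 were listed as well. Of 15 mTORC1 and MNK signalling genes, 4 were called higher and 5 lower, near the 60.7% called over all tested genes. Mtor had 15, 14.3 and 15.4 under the WT label and 10.5, 9.81 and 10.2 under the Sdc1-/- label (-0.51, standard error 0.047, limma adjusted p = 1.1e-04), and Pdcd4, an inhibitor of the eIF4A helicase, had 89.1, 100.4 and 93.6 under the WT label and 60.4, 64.5 and 65.5 under the Sdc1-/- label (-0.56, standard error 0.053, limma adjusted p = 1.2e-04). Mknk1, a kinase of eIF4E, had 35.1, 38.5 and 32.3 under the WT label and 28.8, 28.4 and 29.1 under the Sdc1-/- label (-0.28, standard error 0.063, limma adjusted p = 0.00642), while Mknk2 was not called. The other signalling genes called lower were Ddit4 (-0.98), which encodes an inhibitor of mTORC1, and Sesn2 (-0.27). The 4 signalling genes called higher were Tsc1 (0.48), Rps6kb2 (0.43), Tsc2 (0.20) and Deptor (0.14). Of 17 tested genes in the list of ATF4 and integrated stress response targets, which holds Atf4 too, 11 were called lower and 1 higher (median -0.27, and -0.13 at a common sum). Ddit3, which encodes the stress factor CHOP, had 18.9, 17.7 and 16.3 under the WT label and 13.4, 12.7 and 11.6 under the Sdc1-/- label (-0.46, standard error 0.071, limma adjusted p = 0.00123), but Atf4 itself was not called at 155, 152 and 144 under the WT label and 146, 142 and 141 under the Sdc1-/- label (-0.07, standard error 0.036, limma adjusted p = 0.143). The list of eIF2 kinases, phosphatases and excluded eIF2 subunits had 5 higher and 2 lower of 10, which includes Eif2s3y. These lists are not separate. Ddit4 and Sesn2 are in both the signalling and the stress response list, and Ppp1r15a is in the stress response and the eIF2 kinase list, all called lower.

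The remaining lists were mixed, to be read beside the 29.3% of all tested genes called higher and 31.3% called lower. Mitochondrial translation factors had 6 higher and 2 lower calls of 10 (median 0.18), and ribosome biogenesis factors 10 higher and 6 lower of 25 (median 0.07). Cytosolic aminoacyl-tRNA synthetases had 6 higher and 5 lower of 20, and the hypusine and diphthamide enzymes, which modify eIF5A and eEF2, 2 higher and 2 lower of 9. At a common sum 12 synthetases and 6 of the hypusine and diphthamide enzymes were called higher, against 43.5% of all tested genes.

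**Figure D5:**
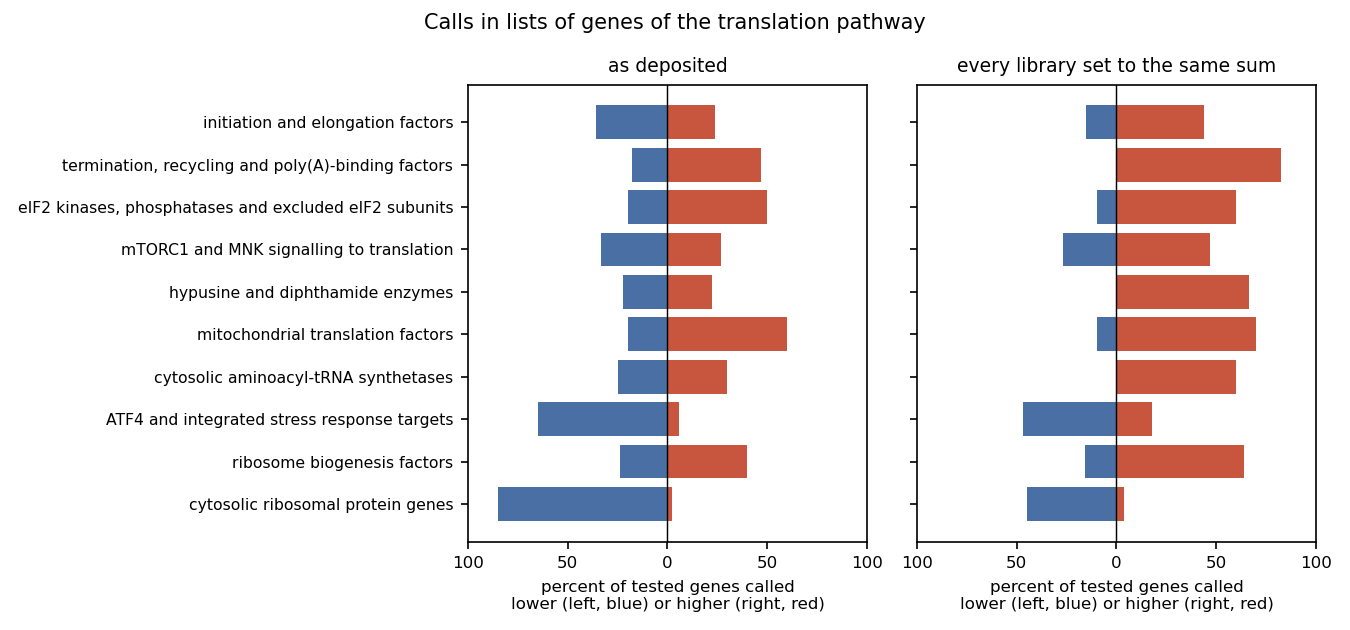
Percent of the tested genes of each list called lower (left, blue) or higher (right, red) in the libraries labelled Sdc1-/-, as deposited and with every library set to the same sum. The genes with ribosomal protein symbols and the stress response targets are the lists with the most lower calls in both panels, and in most other lists the lower calls shrink or vanish at a common sum. Some lists share genes.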

How the data were processed

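RNA-seq values of 6 libraries, 3 labelled WT and 3 labelled Sdc1 KO, were grouped by the labels. Per the paper and the labels, the authors assigned reads with kallisto, summed them per gene and used sleuth 0.30.0. The build named is mm10, and the transcriptome is not given in the sources used here. What the authors deposited for each library is a signal, a TPM rescaled between libraries, with no counts. The planned test for TPM was used on these rescaled values. A table of the authors' own comparison (effect sizes and p-values) was not used. Symbols and positions came from GENCODE M21 on GRCm38, which held 35454 of 36083 identifiers.

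Genes with a mean of at least 1 (12155) were tested with limma 3.58.1 in R 4.3.3 on log2(value + 1), fitting group alone, with a variance trend and Benjamini-Hochberg adjustment at 0.05. With 200 genes simulated at a log2 fold change of 1 among 12155, 195 (97.5%) were recovered with 12 false calls. Most calls of members were smaller than that change. The simulation used normal noise and does not show recovery of smaller changes or false calls under a shift in scaling. Ratios of 2 genes were compared with an exact permutation test. The members and lists were chosen with earlier results of these data known. Named with values were the 10 members of highest mean, the 8 largest rises and 8 largest falls among called members that averaged at least 5 and did not overlap, 14 genes for the steps of translation and the 4 uncalled members of highest mean. In all, 17 fits were made, 2 of them added after the data were seen. Words of 31 bases were compared between annotated transcripts. Python 3.11.15 with pandas 2.3.3, numpy 2.4.6 and matplotlib 3.10.9 served the other steps.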

Additional observations from a re-analysis of the deposited data

How the results depend on the processing

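With each library left out in turn, 12 to 14 members were called higher and 17 to 21 lower. Pseudocounts of 0.1 or 0.5, another minimum mean and no variance trend also gave 12 to 14 higher and 17 to 21 lower. Scaling changed more, with 26 higher and 9 lower at a sum of 1000000 and 21 higher and 11 lower after quantile normalization. At a sum of 1000000 the members summed to 34737 for WT and 33701 for Sdc1 KO. Counting all members, the log2 fold change reversed in 18 there, 9 after quantile normalization and 8 with a trend with GC content and length removed, and the values here are those of called or named members. At that sum it reversed to 0.046 for Eef1g, 0.10 for Eif2s1, 0.083 for Eif3d, 0.12 for Eif3g, 0.031 for Eif3k, 0.060 for Eif3l, 0.049 for Eif4ebp1, 0.034 for Eif1ad and 0.0072 for Eif5a. After quantile normalization it reversed to 0.17 for Eef1g, 0.020 for Eif2s1, 0.038 for Eif3d, 0.071 for Eif3g, 0.00048 for Eif4ebp1 and 0.12 for Eif5a. Of the alternatives chosen after seeing the data, removing that trend reversed it to 0.0062 for Eif3d, 0.091 for Eif3g, 0.031 for Eif3k, 0.0015 for Eif3m and -0.035 for Eif4g2, and a common median over protein-coding genes to -0.0015 for Eif5. Leaving out each library gave -0.16 to 0.038 for Eif3d, -0.038 to 0.13 for Eif4g2, -0.00076 to 0.060 for Eif5 and -0.049 to 0.17 for the log2 ratio of Eif5a2 to Eif5a. The cause was not tested. Same-numbered libraries shared only a number, with correlations of their deviations of 0.15, -0.0083 and 0.018, and with the replicate block 13 members were called higher and 23 lower. Read depth is unknown, and with 3 libraries in each group no exact test can go below 0.1.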

Other observations

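The 3 genes with these symbols that fell below the minimum mean were not tested. Eef1akmt3, a methyltransferase of eEF1A, had values of 0.158, 0.174 and 0.146 under the WT label and 0.328, 0.359 and 0.341 under the Sdc1-/- label, with no overlap. Eif4e1b, the cap binder of oocytes, had values of 0.0577, 0.0752 and 0.126 against 0.126, 0.0496 and 0.077, which overlapped. Eef1a2 was listed at 0 in 5 of 6 libraries.

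Among the stress response targets, Trib3, a pseudokinase induced by ATF4 and CHOP, had values of 6.06, 5.50 and 5.71 under the WT label and 1.64, 1.94 and 1.78 under the Sdc1-/- label. Ddit4, an inhibitor of mTORC1, had values of 76.3, 74.1 and 77.6 under the WT label and 37.9, 36.6 and 39.4 under the Sdc1-/- label, and Asns, asparagine synthetase, 137, 139.5 and 131 under the WT label and 105, 107 and 104 under the Sdc1-/- label. In the ribosome biogenesis list, the nucleolar protein gene Ncl had values of 749, 803 and 756 under the WT label and 1042, 1060.5 and 1095 under the Sdc1-/- label, and Pes1, a large subunit assembly factor, 137, 138 and 131 under the WT label and 104, 99.8 and 96.8 under the Sdc1-/- label. The groups did not overlap in any of these 5 genes, which were chosen after their values were seen, so this lends them no weight. Of all tested genes, 66.7% did not overlap. In the stress response list Nupr1 was the 1 gene called higher, at 100, 96.2 and 88.6 under the WT label and 128, 140 and 132 under the Sdc1-/- label. Psat1, Phgdh and Shmt2 were among those not called.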
